A study of Homo sapiens with 3 samples.

Results

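Integrins are cell-surface adhesion receptors built from an alpha and a beta subunit, and the alpha subunit largely sets which ligand is bound. Leukocytes share the beta 2 subunit ITGB2 (CD18), which pairs with ITGAL (CD11a) to form LFA-1, with ITGAM (CD11b) to form Mac-1 (complement receptor 3) and with ITGAX (CD11c) to form complement receptor 4. ITGB1 pairs among others with ITGA4 to form VLA-4, a receptor for VCAM1 and fibronectin, with ITGA5 to form the classical fibronectin receptor and with ITGA6 to form a laminin receptor, while ITGB7 pairs with ITGA4 in a receptor for the gut addressin MADCAM1. ITGAM and ITGAX are widely used surface markers of monocytes and macrophages. The 9 subunits named here were chosen by name, each through its UniProt accession (ITGAM P11215, ITGAX P20702, ITGAL P20701, ITGB2 P05107, ITGA4 P13612, ITGA5 P08648, ITGA6 P23229, ITGB1 P05556 and ITGB7 P26010), out of 213543 features in the count table. All 9 accessions have a row, and 5 reached 10 counts in at least 1 library, the filter passed by 9609 features of the table.

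The cells are THP-1, an established line from a human acute monocytic leukemia driven by the MLL-AF9 fusion, and they were profiled by RNA-seq. The libraries are an untreated control (0 h) and cells kept for 8 h or 24 h in 0.2 µM GSK-LSD1, a small molecule that inhibits the histone demethylase LSD1 and is used to push these cells towards monocytes. Each time point is 1 library of total RNA depleted of ribosomal RNA, so the values below compare 3 libraries and have no replicate check, and no p-value is given. Time in culture and treatment cannot be told apart, since no untreated library was taken at 8 h or 24 h.

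The libraries held 1310912 to 1475938 counts, and a feature at 0 could hold up to 3 counts, or 1.95 to 2.34 CPM (counts relative to the library size, scaled by edgeR's TMM method). All intervals are 95% intervals that cover counting error only. Among 9 markers of monocytic and myeloid cells, LYZ (lysozyme) had 655 counts in untreated cells, 747 after 8 h and 1773 after 24 h, SPI1 (the myeloid transcription factor PU.1) had 69, 87 and 102, and CD4 had 222, 257 and 309, but CD33 and CSF1R are listed at 0 throughout. The summed level of the 9 markers was 629, 880 and 1560 CPM, most of it LYZ, and without LYZ, a sum added after its values were seen, the other 8 gave 203, 297 and 312 CPM. MPO (myeloperoxidase) had 17, 18 and 18 counts. Of 10 markers of lymphoid, erythroid, megakaryocytic, neural and epithelial cells, 7 are listed at 0 in all libraries, among them CD3D, CD3E, MS4A1, HBB, PF4 and EPCAM, and the sum over the list was 2 to 4 counts per library. Of all features named by a UniProt accession 73.4% are listed at 0 throughout. These 7 zeros are thus near the share of the table and are a weak check on other cell types. CD86, the marker the study used to follow LSD1 inhibition, had 1, 19 and 37 counts.

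On chromosome 16 of GRCh38, ITGAM spans 31259967 to 31332892 on the forward strand, and ITGAL lies upstream on the same strand at 30472658 to 30523567. ITGAX, at 31355134 to 31382999, follows ITGAM on the same strand. ITGA4 (181457202 to 181538940) and ITGA6 (172427354 to 172506459) are on chromosome 2, ITGB1 is on chromosome 10 (32887273 to 33005792), and ITGA5 (54395261 to 54419266) and ITGB7 (53191323 to 53207282) are on chromosome 12. ITGB2 is on chromosome 21 (44885953 to 44931989). The RefSeq promoter table, with windows of 300 bases on GRCh38.p14 that run from 250 bases before a start to 50 bases after it, holds 8 windows for 6 of the 9 genes, and ITGAL, ITGAX and ITGB2 have no entry. The windows of ITGAM (chr16:31259725-31260024, forward strand) and ITGA4 (chr2:181457136-181457435, forward strand) are shown because these are the subunits with the largest differences in opposite directions. Capitals mark GAGGAA or its reverse complement TTCCTC, the core of the box bound by PU.1.
ITGAM: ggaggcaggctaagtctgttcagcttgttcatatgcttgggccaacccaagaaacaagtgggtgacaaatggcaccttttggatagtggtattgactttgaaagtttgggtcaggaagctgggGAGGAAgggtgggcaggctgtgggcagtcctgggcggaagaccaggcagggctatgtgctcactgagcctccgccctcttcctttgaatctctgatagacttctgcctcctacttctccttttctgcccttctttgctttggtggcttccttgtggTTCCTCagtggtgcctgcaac
ITGA4: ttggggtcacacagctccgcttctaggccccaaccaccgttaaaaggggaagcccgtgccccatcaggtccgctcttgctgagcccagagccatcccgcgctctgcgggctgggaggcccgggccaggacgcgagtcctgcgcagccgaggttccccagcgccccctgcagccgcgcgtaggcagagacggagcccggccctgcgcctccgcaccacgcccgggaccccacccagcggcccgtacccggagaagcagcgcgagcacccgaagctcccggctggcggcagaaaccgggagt
The ITGAM window holds the box with its first base at -127 on the forward strand and again at 30 on the reverse strand, counted from the start site. The ITGA4 window holds none. Among the 8 windows of these genes 3 hold it (ITGAM, ITGB7 and 1 of the 2 windows of ITGB1), a share to be read against 27.9% of all 35116 promoter windows. A site of GFI1, a repressor that works with LSD1, was searched only as the exact stretch TAAATCAC or GTGATTTA. It is in 0 of the 8 windows and in 0.624% of all windows. At that share few sets of 8 windows would hold it, so its absence says little. These are matches of letters and not measured binding sites.

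In the untreated cells the VLA-4 pair held most of the counts of these subunits. ITGA4 took 652 and ITGB1 took 345 of the 1205 counts over the 9 subunits, or 54.1% (Wilson interval 51.3% to 56.9%) and 28.6% (26.1% to 31.2%). ITGAM had 87 counts, ITGAL had 74 and ITGA6 had 38. ITGB2 had 7 counts, ITGB7 and ITGA5 had 1 each, and ITGAX is listed at 0. Per kilobase of the Ensembl canonical transcript, the order at 0 h was ITGA4 at 62.6 CPM per kb (exact Poisson interval 57.9 to 67.6), ITGB1 at 60.1 (53.9 to 66.8), ITGAM at 12.0 (9.61 to 14.8), ITGAL at 9.39 (7.37 to 11.8), ITGA6 at 4.25 (3.01 to 5.84) and ITGB2 at 1.62 (0.653 to 3.34). Neighbours in this order overlapped in their intervals, apart from ITGB1 over ITGAM and ITGAL over ITGA6. These levels use the full transcript length, whereas the exonic bases that were in fact counted for each accession are not stated. The low counts of ITGB2, ITGB7, ITGA5 and ITGAX do not show low levels of these genes in this table. The shares therefore describe the counts and not which integrins the cells carry.

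**Figure D1:**
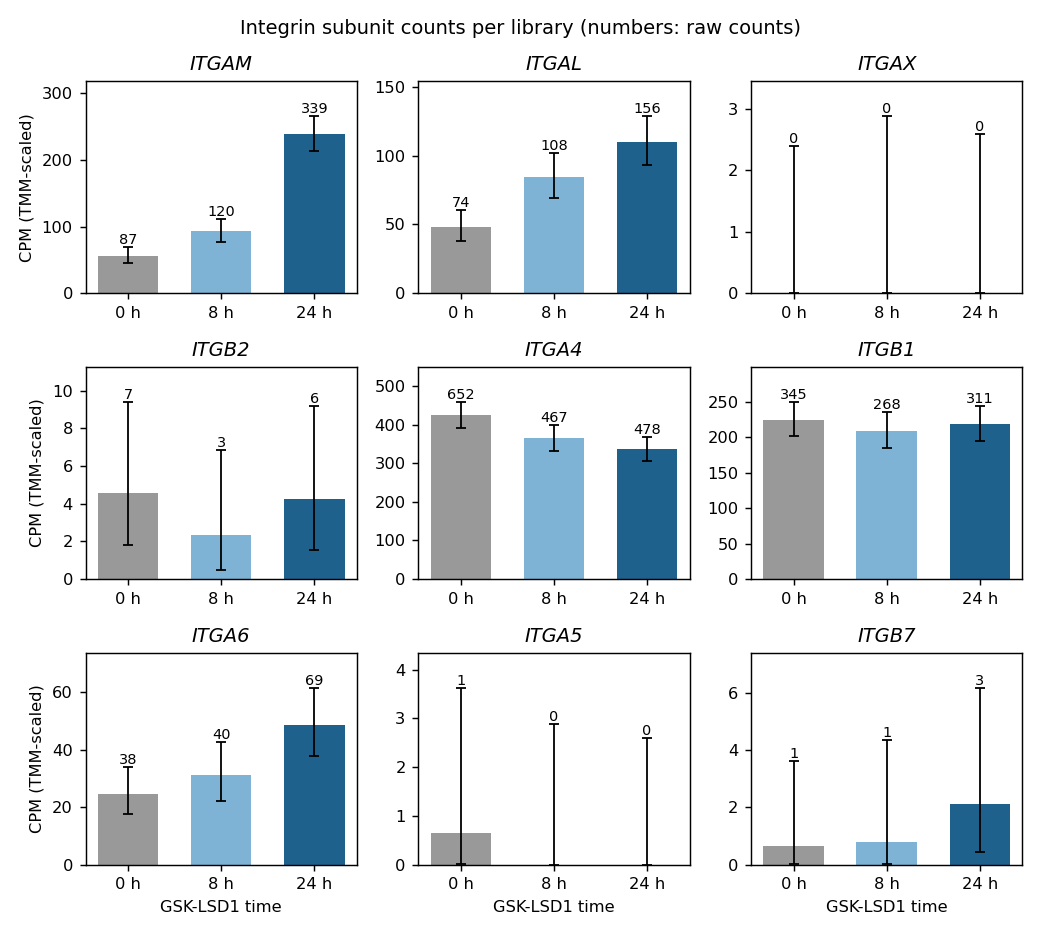
Bars show TMM-scaled CPM of each integrin subunit in the single library of each time point (0 h untreated, 8 h and 24 h of GSK-LSD1), each panel with its own axis from 0; whiskers are exact 95% Poisson intervals and the numbers are raw counts. ITGAM climbs from 87 to 339 counts, ITGAL and ITGA6 also have their highest counts at 24 h, ITGB1 stays between 268 and 345, and ITGAX, ITGA5, ITGB7 and ITGB2 never pass 7.

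The largest difference among the counted subunits was that of ITGAM, the alpha subunit of Mac-1. Its counts were 87 in the 0 h library, 120 in the 8 h library and 339 in the 24 h library, or 56.6, 93.7 and 239 CPM, so each library was above the one before it. In bulk RNA, more cells with ITGAM transcripts and more ITGAM RNA per cell cannot be told apart. The ratio was 1.66 (exact interval 1.25 to 2.21) at 8 h against 0 h, 4.22 (3.32 to 5.40) at 24 h against 0 h and 2.55 (2.06 to 3.16) at 24 h against 8 h. On the log2 scale the difference was 1.35 (interval 1.04 to 1.66) between 8 h and 24 h and 0.73 (interval 0.32 to 1.14) between 0 h and 8 h. The later span is the longer one and the intervals overlap, so these values do not show a faster rise after 8 h. With a log2 fold change of 2.05 at 24 h against 0 h, computed with a prior count of 2, ITGAM ranked 79 from the top among the 9609 features.

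ITGAL, the alpha subunit of LFA-1, had 74, 108 and 156 counts, or 48.2, 84.3 and 110 CPM. It too was highest at 24 h, but it was nearer its final level at 8 h than ITGAM was. Its ratio was 1.75 (1.29 to 2.39) at 8 h and 2.28 (1.72 to 3.05) at 24 h against 0 h, while the ratio of 1.30 (1.01 to 1.68) from 8 h to 24 h had an interval that only just excluded 1. Exons of 2 genes on the other strand cover 9.7% of the exonic bases of its canonical transcript. Their own transcript features held at most 1 count in any library.

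ITGA6, the alpha subunit of laminin receptors, was low in all 3 libraries, with 38, 40 and 69 counts. The 0 h and 8 h values are within counting error of each other, at a ratio of 1.26 (0.790 to 2.02). At 24 h the ratio was 1.96 (1.30 to 3.0) against 0 h and 1.56 (1.04 to 2.36) against 8 h. Antisense genes cover 6.0% of its canonical exonic bases, and among them ITGA6-AS1 and PDK1-AS1 reached 2 and 5 counts at 24 h under their own features.

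ITGA4, the alpha subunit of VLA-4, was lower in both treated libraries. Its counts were 652 in the 0 h library, 467 in the 8 h library and 478 in the 24 h library, or 424, 365 and 337 CPM. The ratio against 0 h was 0.859 (0.761 to 0.969) at 8 h and 0.793 (0.703 to 0.894) at 24 h, and the treated libraries did not differ from each other beyond counting error (0.923, interval 0.811 to 1.05). Exons of CERKL, a gene on the other strand, cover 41.5% of the exonic bases of the ITGA4 canonical transcript, and whether strand was used in counting is unknown, so that reads of both genes cannot be told apart there. The 6 CERKL transcripts with features of their own are listed at 0 in every library. Counts of CERKL outside these features were not looked up, so the zeros do not give its level.

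ITGB1, the common beta subunit of the VLA receptors, gave 345, 268 and 311 counts, or 225, 209 and 219 CPM. These are the closest levels of the 5 subunits that passed the filter. Its ratio against 0 h was 0.932 (0.792 to 1.10) at 8 h and 0.975 (0.834 to 1.14) at 24 h, and both intervals include 1.

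**Figure D2:**
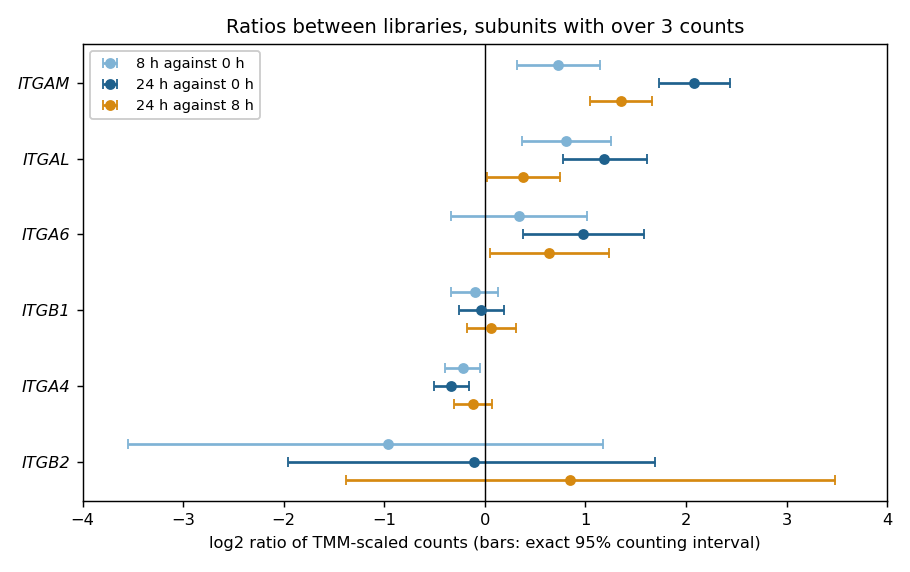
Points are log2 ratios of TMM-scaled counts for the 3 comparisons between single libraries, and bars are exact 95% counting intervals; the vertical line marks equal levels. ITGAM, ITGAL and ITGA6 lie above 0 at 24 h against 0 h, ITGA4 lies below it, ITGB1 straddles it, and the intervals of ITGB2 span 0 widely.

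Of the 5 subunits past the filter, 0 passed the log2 fold change threshold of 1 in either direction at 8 h against 0 h. Of all 9609 features 4.51% were above 1 and 6.02% were below -1. At 24 h against 0 h 2 subunits were above 1 (ITGAM and ITGAL, the latter with a log2 fold change of 1.17), against 6.19% of all features, and 0 were below -1, against 5.58%. ITGA6 lay just under the threshold at 0.94. At 24 h against 8 h ITGAM alone was above 1, against 4.03% of all features, and 0 were below, against 1.97%. By the other reading, counting intervals wholly off 0, 2 subunits were higher and 1 (ITGA4) was lower at 8 h, against 11.7% and 9.71% of all features. At 24 h against 0 h 3 were higher and 1 was lower, against 13.0% and 12.6%, and at 24 h against 8 h 3 were higher and 0 lower, against 4.87% and 5.58%. The 5 subunits behind these counts had at least 38 counts in every library, so that none passed the filter through 1 library alone. Whether an interval leaves out 0 depends also on a feature's counts. The 9609 features needed 10 counts in only 1 library, so neither the shares by threshold nor those by intervals are like for like. The median log2 fold change of the 5 subunits was 0.32 at 8 h and 0.94 at 24 h against 0 h. The median of all features was -0.01 in both comparisons.

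Ratios of 2 subunits within a library do not depend on how the libraries were scaled. Of the counts of ITGAM and ITGA4 together, ITGAM took 11.8% before treatment (Wilson interval 9.64% to 14.3%), then 20.4% (17.4% to 23.9%) in the 8 h library and 41.5% (38.2% to 44.9%) in the 24 h library. The 3 intervals are separate. The ratio of ITGAM to ITGA4 was 5.31 times higher at 24 h than at 0 h (exact conditional interval 4.06 to 6.998), and that of ITGAL to ITGA4 was 2.87 times higher (2.11 to 3.94). Against ITGB1 in place of ITGA4, the change was 4.32 (3.24 to 5.79) for ITGAM, 2.34 (1.69 to 3.26) for ITGAL and 2.01 (1.29 to 3.17) for ITGA6. ITGAM and ITGAL kept the same ratio to each other from 0 h to 8 h within counting error (a change of 0.945, interval 0.618 to 1.45). At 24 h the ratio of ITGAM to ITGAL was 1.95 times that at 8 h (1.40 to 2.73). ITGA4 relative to ITGB1, the 2 subunits of VLA-4, changed by 0.922 (0.752 to 1.13) at 8 h and by 0.813 (0.667 to 0.992) at 24 h against 0 h.

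**Figure D3:**
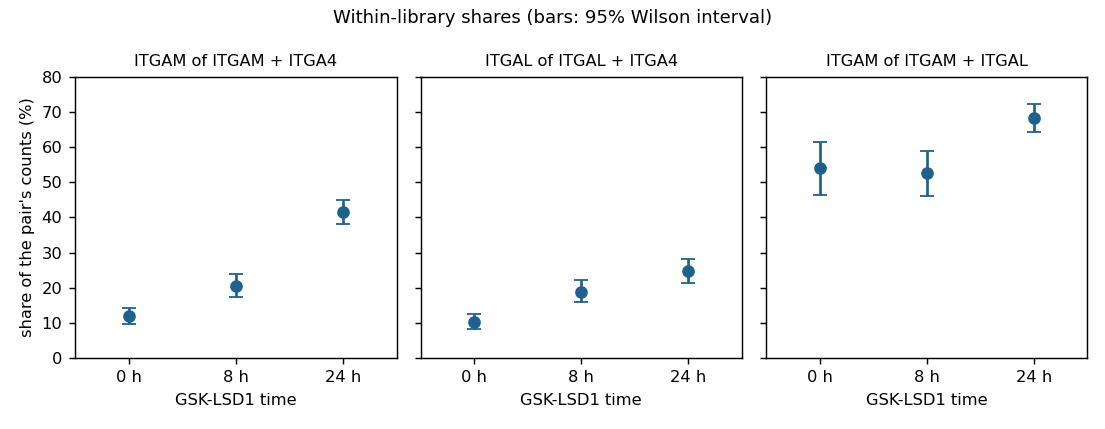
Points give the percentage of a pair's counts that fell to the first-named subunit in the library of each time point, with 95% Wilson intervals. ITGAM moves from 11.8% to 41.5% of the ITGAM and ITGA4 counts, while its share of the ITGAM and ITGAL counts is 54.0% at 0 h, 52.6% at 8 h and 68.5% at 24 h.

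By 24 h the order of levels had changed. Per kilobase, ITGB1 stood at 58.6 CPM per kb (52.3 to 65.5), ITGAM at 50.6 (45.3 to 56.3) and ITGA4 at 49.6 (45.3 to 54.3), and neighbours among these 3 overlapped in their intervals. ITGAL followed at 21.4 (18.2 to 25.1) and ITGA6 at 8.35 (6.50 to 10.6), each apart from the subunits next to it. ITGAM thus went from 7.22% of the counts over the 9 subunits at 0 h to 24.9% at 24 h (22.7% to 27.3%), and ITGA4 moved from 54.1% to 35.1% (32.6% to 37.7%).

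The remaining 4 subunits gave too few counts for a comparison. ITGB2, the obligate partner of ITGAM, ITGAL and ITGAX, had 7, 3 and 6 counts, and its ratio of 0.927 at 24 h against 0 h had an interval from 0.257 to 3.22. ITGB7 had 1, 1 and 3 counts, ITGA5 had 1, 0 and 0, and ITGAX is listed at 0 in every library. A low value under one accession does not show a low level of the gene in this table. Only 1 UniProt entry was read per gene, and other entries of the same gene were not looked up. Of the accession features 73.4% are listed at 0 in all libraries, among them FLNA, ACTN4 and ILK, which encode filamin A, an alpha-actinin and a kinase-like adaptor used by nearly all cells. Features named by the genes' own transcripts, most of them retained-intron or without a defined coding sequence, cover 92.3% of the canonical exonic bases of ITGAX, 100% of those of ITGB2, 78.4% of ITGA5 and 63.6% of ITGB7. The same share was 22.3% for ITGAM, 21.3% for ITGA6, 38.3% for ITGA4, 63.4% for ITGAL and 64.7% for ITGB1. How reads shared by such features were counted is not stated, and the part of this overlap in the low counts was not tested. Exons of ZNF740, on the other strand, also cover 52.4% of the canonical exonic bases of ITGB7.

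The transcripts listed under their own Ensembl identifiers give a second, much shallower view of the same genes. GENCODE v44 places 54 such features in the 9 genes, and 21 of them had a count. Summed over them, the 0 h library held 82 counts, the 8 h library 32 and the 24 h library 75. The 8 h library was thus low, with a log2 ratio of -1.10 (-1.73 to -0.49) against 0 h, and the 24 h library was level with 0 h at -0.02 (-0.49 to 0.45). All transcript-named features of the table together had a log2 ratio of -0.04 (-0.06 to -0.03) at 8 h against 0 h. The retained-intron features among them had -0.18 (-0.20 to -0.16). Among the features read, ITGAX had counts only here, in a retained-intron transcript (ENST00000571644) with 10, 0 and 11 counts. With the 8 h library set to the floor of 3 counts, the bound on its log2 ratio to 0 h was -1.47 (-3.97 to 0.48). That interval is for 3 counts in place of the listed 0, so it does not settle whether the libraries differed. ITGB2 had a retained-intron transcript (ENST00000498666) with 13, 5 and 18 counts, and ITGA5 had a transcript without a defined coding sequence (ENST00000547744) with 12, 3 and 6. A protein-coding ITGB1 transcript (ENST00000609742) had 11, 1 and 2 counts, with log2 ratios against 0 h of -3.20 (-8.62 to -0.41) at 8 h and -2.35 (-5.56 to -0.15) at 24 h, each resting on 1 or 2 counts in the treated library. For ITGAM, ITGAL and ITGA6 these features held at most 5 counts in any library.

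The wider integrin system was read through 91 genes in 4 lists, of which 88 have a row, 35 are listed at 0 in all libraries and 30 reached 10 counts in a library. Of these 30, 2 were above a log2 fold change of 1 and 1 was below -1 at 8 h against 0 h, where 4.51% and 6.02% of all features were. At 24 h against 0 h 3 were above and 0 below, against 6.19% and 5.58% of all features, and at 24 h against 8 h 0 passed in either direction, against 4.03% and 1.97%. With 30 genes these counts past a log2 fold change of 1 are near the shares over all features. Among 17 other integrin subunits, 9 are listed at 0 and 3 were tested. ITGA11, a collagen-binding alpha subunit, had 18, 29 and 48 counts and at 24 h a log2 ratio of 1.53 (0.72 to 2.40). ITGAV, the alpha subunit of the vitronectin receptors, had 202, 119 and 159 counts, lower at 8 h by a log2 ratio of -0.50 (-0.84 to -0.17) and within counting error of 0 h at 24 h (-0.23, interval -0.54 to 0.08). ITGA2, another collagen receptor subunit, had 17, 6 and 8 counts, and its intervals against 0 h included 0.

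Among 22 ligands, 19 have a row and 3 were tested. ICAM1, the main cell-surface ligand of LFA-1 and Mac-1, had 2, 13 and 14 counts, and its log2 ratio against 0 h was 2.96 (0.82 to 6.15) at 8 h and 2.92 (0.80 to 6.10) at 24 h, wide intervals that rest on the 2 counts at 0 h. LAMC1, the laminin gamma 1 chain, had 453, 450 and 535 counts and log2 ratios of 0.25 (0.06 to 0.45) and 0.35 (0.17 to 0.54). LAMA5 had 27, 16 and 13 counts, with both intervals including 0. FN1 (fibronectin) had 4, 3 and 8 counts, and VCAM1, MADCAM1 and ICAM3 are listed at 0.

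The cytoplasmic machinery that switches integrins on was counted in part, with 21 of 41 activators and adaptors tested and 9 listed at 0 in all libraries. In each of the 3 comparisons 0 of the 21 passed a log2 fold change of 1 in either direction, where at most 6.19% of all features were above and at most 6.02% below, so that few would pass at the shares of the whole table. Their median was 0.14 at 8 h and 0.17 at 24 h against 0 h. The summed counts of all features named by UniProt accessions had log2 ratios of 0.10 and 0.09 on the same scale. The median of the tested ones among them was 0.01 and -0.002. Ratios of this size below are to be read against these values. TLN1 (talin), which binds beta tails to activate integrins, had 1682, 1778 and 1950 counts, and its log2 ratio of 24 h to 0 h was 0.33 (0.23 to 0.42). APBB1IP (RIAM), which links the GTPase RAP1 to talin, had 488, 468 and 571 counts (0.34, interval 0.16 to 0.52), while RAP1B had 89, 47 and 55 (-0.58, interval -1.09 to -0.08). SYK, a kinase used in leukocyte integrin signaling, had 2117, 1895 and 2230 counts (0.19, interval 0.10 to 0.27), and RAC2, the hematopoietic Rac GTPase, had 655, 597 and 779 (0.36, interval 0.21 to 0.52). CRKL, RHOA and RAC1 had log2 ratios of 0.12, 0.18 and 0.10 at 24 h. FERMT3, the leukocyte kindlin, had 0, 1 and 0 counts.

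Among 11 membrane partners 3 were tested. PLAUR, the urokinase receptor and a lateral partner of Mac-1, had 2, 10 and 11 counts and log2 ratios of 2.59 (0.35 to 5.82) and 2.57 (0.38 to 5.79) at 8 h and 24 h against 0 h, again from 2 counts at 0 h. The tetraspanins CD81 and CD82 had 23, 23 and 23 and 16, 22 and 21 counts. BSG, CD63 and CD53 never passed 8 counts.

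**Figure D4:**
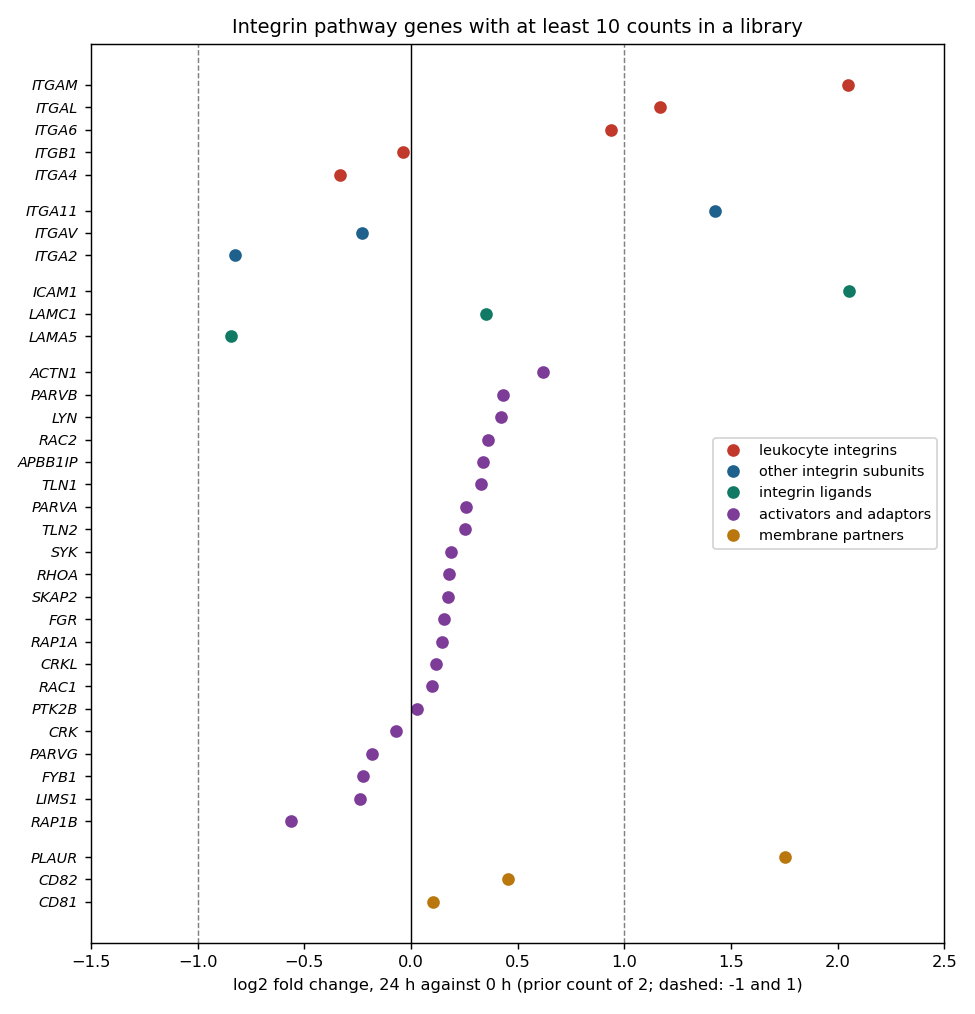
Points are log2 fold changes at 24 h against 0 h with a prior count of 2, for the 5 leukocyte integrin subunits and 30 other genes of the integrin system with at least 10 counts in a library, grouped by list; dashed lines mark -1 and 1. ITGAM, ITGAL, ITGA11, ICAM1 and PLAUR lie above 1, and all 21 activators and adaptors lie between -0.56 and 0.62.

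Patterns over the 3 libraries were compared with those of the 20 genes of these lists that had at least 50 counts in a library, by the distance between pairs of log2 fold changes at 8 h and 24 h against 0 h. The nearest gene to ITGA4 was LIMS1, an adaptor at integrin adhesions, at a distance of 0.16, and the nearest to ITGB1 was the adaptor CRK, at 0.09. The nearest to ITGAM, ITGAL and ITGA6 was in each case ACTN1, an alpha-actinin with 50, 62 and 72 counts, but at distances of 1.44, 0.60 and 0.39. This rests on the minimum of 50 counts, which leaves out ITGA11. With a minimum of 10 counts and 30 candidates, a choice made after the values were seen, ITGA11 was nearest to ITGAL at a distance of 0.27 and to ITGAM at 0.65, and the nearest genes of the other 3 subunits were as before. Both comparisons share the 0 h library, and with 3 libraries these distances are descriptions only.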

How the data were processed

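Reads were trimmed with fastp and mapped to hg38 with STAR through Seq2science, per the labels and the methods. The values the authors deposited are raw read counts, as whole numbers. Which tool counted them, with which annotation and strand setting, and what became of shared reads is not given in the sources used here. Features carry UniProt accessions or Ensembl transcript identifiers. The table does not pair accessions with genes, so the symbols of the 9 subunits and of all other listed genes were paired with their UniProt entries by hand and could not be checked against a file. Transcripts, lengths and coordinates come from GENCODE v44, on the same build as the counts.

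Library sizes were scaled by TMM (edgeR 4.0.16, R 4.3.3). Log2 fold changes used a prior count of 2 and were read for features that reached 10 counts in any of the 3 libraries. Ratios per gene had no prior count and carry exact (Clopper-Pearson) 95% intervals conditional on the sum of both counts. Changes of the ratio of 2 subunits have exact conditional intervals of the odds ratio (scipy 1.17.1, Python 3.11.15). With 1 library per time point no test could be fitted. Fold changes and counting intervals were tested on simulated Poisson counts with known library sizes and no variation between libraries. TMM scaling was not part of that test. Alternatives were size factors from DESeq2 1.42.0, unscaled totals, and a changed prior count, filter or call rule. The members and lists were chosen with earlier results of these data known. Named were all 9 subunits, list genes that passed 1 on the log2 scale at 24 h, up to 6 more per list with the most counts, the nearest genes by pattern and CD86. MPO, RAP1B, APBB1IP, FERMT3, VCAM1, MADCAM1, ICAM3, FLNA, ACTN4, ILK and the genes overlapping members were named after their values were seen. A marker planned for the check of other cell types is not reported here.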

Additional observations from a re-analysis of the deposited data

How the results depend on the processing

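Under DESeq2 size factors, total counts and prior counts of 0.5 and 5, the log2 fold changes of the 5 counted subunits gave 60 alternative values, and all 60 lay within the main counting interval. ITGAM at 24 h against 0 h ranged from 1.97 to 2.07, ITGAL from 1.09 to 1.18, ITGA6 from 0.86 to 0.96, ITGA4 from -0.42 to -0.33 and ITGB1 from -0.12 to -0.03. A threshold of 2 left 1 subunit (ITGAM) above it in the comparison of 24 h with 0 h, and 0 in that of 24 h with 8 h. Counting intervals off 0 gave 2 higher and 1 lower subunit at 8 h, 1 lower at 24 h against 0 h and 3 higher at 24 h against 8 h.

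Counts over the 30 tested pathway genes moved more. At 8 h against 0 h, total counts gave 2 lower, and a prior count of 5 gave 0 lower. A minimum of 50 counts gave 0 higher and 0 lower, and no filter gave 4 and 2. With the main filter, a threshold of 2 gave 1 and 0, and intervals gave 12 and 4. At 24 h against 0 h, the minimum of 50 counts gave 0 higher, since ITGA11, ICAM1 and PLAUR have fewer, no filter gave 6, a threshold of 2 gave 1, and intervals gave 12 higher and 1 lower. At 24 h against 8 h, no filter gave 2 lower and intervals gave 3 higher. Over all features, intervals took 11.7% higher and 9.71% lower at 8 h against 0 h. They took 13.0% and 12.6% at 24 h against 0 h, and 4.87% higher at 24 h against 8 h. The 12 of 30 higher by intervals against 0 h are thus above those shares under TMM scaling, the only scaling used for intervals. At 8 h the lower limits of the 12 ran from 0.012 (ACTN1) to 0.82 (ICAM1) on the log2 scale. Total counts moved the median of all features at 8 h from -0.011 to -0.099. Whether an interval leaves out 0 depends also on a feature's counts. Neither the part of scaling nor that of counts was tested.

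Over all features, 433 were higher and 578 lower in the first comparison (8 h to 0 h), 595 and 536 in the second (24 h to 0 h), and 387 and 189 in the last (24 h to 8 h). Total counts gave 358 and 670, then 547 and 631, then 387 and 187, so that the share of higher among all calls in the second went from 52.6% to 46.4%. A prior count of 5 gave 255 and 294, then 294 lower, then 156 and 78, and a prior count of 0.5 gave 293 lower in the last comparison. With a minimum of 50 counts the first comparison had 88 and 60, the second 132 and 76 and the last 24 and 5. Without a filter these were 3277 and 2319, then 2474 and 1999, then 1865 and 2778. Past a threshold of 2 there were 39 and 29, then 94 and 32, then 20 and 5. By intervals there were 1122 and 933, then 1247 and 1212, then 536 lower. Apart from the number of features that each filter lets through, the cause was not tested. No paired analysis was possible because each time point has 1 library. ITGAX, ITGA5 and ITGB7 had no library above 3 counts under their accessions and gave no ratio.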
